A study of Mus musculus with 6 samples.

Results

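The transcripts of 9 genes of apolipoproteins and lipid efflux (Apoe, Apoa1, Apod, Apoc1, Clu, Abca1, Abcg1, Lcat and Lrp1), chosen by symbol among the 55421 genes counted, were followed in the cerebral cortex of young and old mice. All 9 were found in the libraries. RNA came from the microdissected cortex of C57BL/6J wild-type males, 3 of 6 months of age (mice 10, 11 and 17) and 3 of 24 months of age (mice 2, 4 and 5), and mice with visible tumours had been left out. All 6 animals were killed by cervical dislocation under isoflurane, and each library holds 1 mouse. Cortex was taken whole, so that fewer cells of a type and less RNA per cell cannot be told apart.

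Brain lipids travel in particles that are made within the brain, because plasma lipoproteins do not cross the blood-brain barrier. Astrocytes make most of the ApoE and clusterin (ApoJ, encoded by Clu) of these particles, the transporters ABCA1 and ABCG1 load them with cholesterol and phospholipid, LCAT esterifies the cholesterol, and neurons take them up through LRP1 and other receptors of the LDL receptor family. APOE and CLU are also known as risk genes for late-onset Alzheimer's disease. Oxysterols, formed when cholesterol accumulates, switch on Abca1, Abcg1, Apoe and Apoc1 through the liver X receptors.

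The libraries held 29495379 to 36494240 counts on genes. The 32905 genes that summed to 10 counts or more, all 9 genes among them, were compared between ages with edgeR's quasi-likelihood test after scaling by TMM, which corrects the library totals for composition, and p-values were adjusted over all genes tested (false discovery rate, FDR). CPM, counts relative to the library size so scaled, is used to compare libraries, and TPM is the deposited value per length, the only scale used here to compare genes with each other. Log2 fold changes are given for 24 over 6 months. The choice of scaling shifts every fold change: the median over the 15761 tested genes of at least 1 CPM was -0.14 with TMM and 0.05 with library totals alone, and of the genes past 10% FDR 54.6% were higher at 24 months with TMM and 92.7% with library totals. Transcripts of 1492 olfactory and vomeronasal receptor genes, which are read mainly in the nose, lay at 0.0224 to 0.0250 CPM per kb of exon in the young and at 0.0532 to 0.0859 in the old libraries, and this density is set beside the rarest transcripts.

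Clu, which fell, and Apoa1, which rose, were the 2 of the 9 genes that passed an FDR of 10%, 22.2% of them against 18.4% of all genes tested (10.0% higher and 8.33% lower at 24 months). The same genes were the 2 whose ages did not overlap in CPM, again 22.2%, where 36.3% of all genes tested did not overlap. The share past 10% FDR was near that of all genes, and the share without overlap was below it. No gene of the 9 passed the FDR of 1% used in the study, and neither did any other gene tested (0.0%), whereas 2 of the 9 and 10096 of all genes had an unadjusted p under 0.05. The study did report genes at this FDR, after filtering genes by another method and without naming its test within edgeR. With edgeR's likelihood ratio and exact tests and the Wald test of DESeq2, which passed 1703, 1122 and 227 genes at 1% FDR, none of the 9 was among them. The median log2 fold change of the 9 was 0.02. For 4 of them (Apoe, Clu, Abcg1 and Lrp1) the 95% confidence interval excluded a change of 1.5-fold in either direction.

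**Figure D1:**
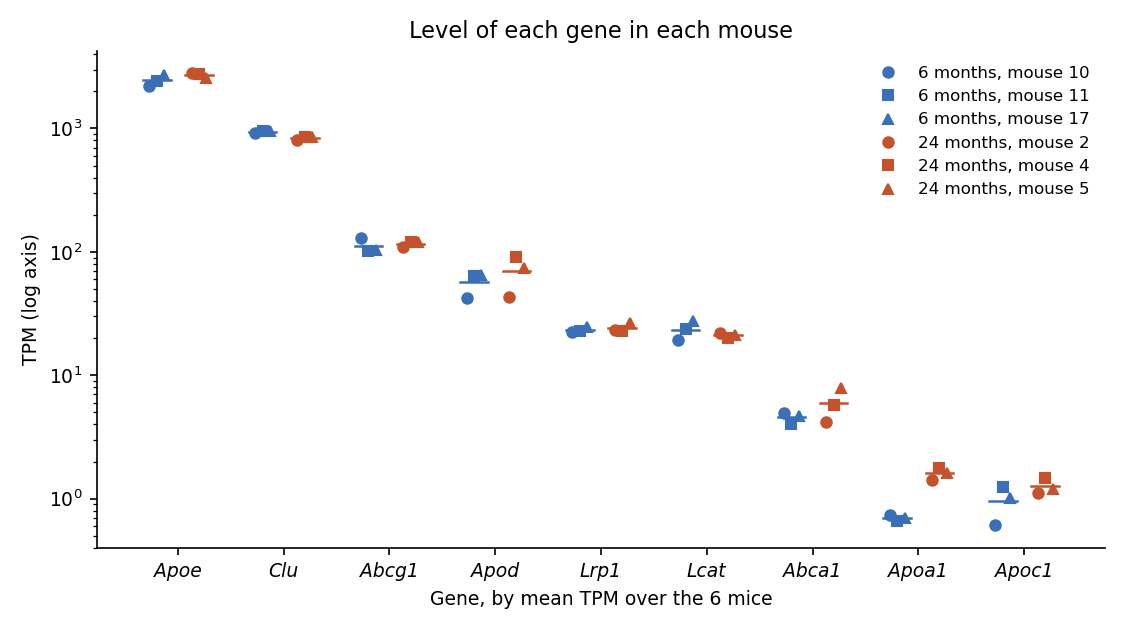
TPM of each of the 9 genes (log axis) in each mouse, with a line at the mean of each age. Apoe is the highest and Clu the next in every mouse, and Apoa1 and Apoc1 are the lowest.

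**Figure D2:**
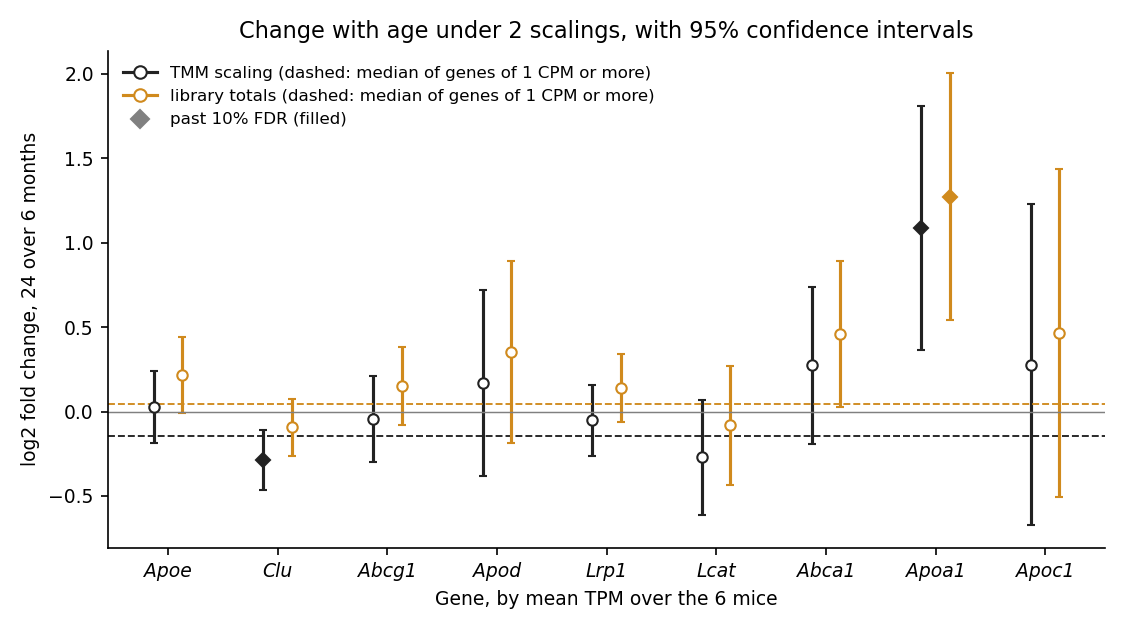
Log2 fold change at 24 over 6 months with its 95% confidence interval, after TMM scaling and after scaling by library totals, with filled diamonds past 10% FDR. Clu passed with TMM only, and Apoa1 with both scalings.

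The 9 transcripts differed by up to 2324-fold in mean TPM. Apoe was the 20th most abundant of all 55421 genes by mean TPM (2575 TPM over the 6 mice) and Clu was the 105th (889.2 TPM). Abcg1 (113.9 TPM), Apod (63.4 TPM), Lrp1 (23.6 TPM), Lcat (22.2 TPM), Abca1 (5.25 TPM), Apoa1 (1.15 TPM) and Apoc1 (1.11 TPM) followed in that order. Neighbours in this order did not overlap at either age, except Lrp1 and Lcat, which overlapped at 6 months, and Apoa1 and Apoc1, which overlapped at both ages.

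The starts of the genes are shown for those controlled by the liver X receptors with a RefSeq promoter entry and for Apoa1, which rose. RefSeq sequences (GRCm38.p6) were matched for 6 of the 9 genes, and each line below gives the bases just before the gene's start, read along its strand. The Abca1 window is chr4:53159896-53160145 on the minus strand, the Apoe window chr7:19699189-19699438 on the minus strand and the Apoa1 window chr9:46228380-46228579 on the plus strand. The Abca1 and Apoe windows hold 250 bases, and that of Apoa1 stops after 200 bases, where the GENCODE annotation starts the gene. Capitals mark both repeats of a match to DR4, the element bound by liver X receptors, which was found in Abca1 only among the 3.
Abca1: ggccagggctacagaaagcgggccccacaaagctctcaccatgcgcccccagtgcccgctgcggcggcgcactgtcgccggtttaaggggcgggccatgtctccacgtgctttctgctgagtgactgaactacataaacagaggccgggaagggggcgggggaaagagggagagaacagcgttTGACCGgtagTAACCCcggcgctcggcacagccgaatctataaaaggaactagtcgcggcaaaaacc
Apoe: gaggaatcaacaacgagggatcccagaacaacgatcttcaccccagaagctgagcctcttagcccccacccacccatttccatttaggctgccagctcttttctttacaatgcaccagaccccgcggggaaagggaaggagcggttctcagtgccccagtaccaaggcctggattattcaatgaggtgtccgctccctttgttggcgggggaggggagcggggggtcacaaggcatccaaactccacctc
Apoa1: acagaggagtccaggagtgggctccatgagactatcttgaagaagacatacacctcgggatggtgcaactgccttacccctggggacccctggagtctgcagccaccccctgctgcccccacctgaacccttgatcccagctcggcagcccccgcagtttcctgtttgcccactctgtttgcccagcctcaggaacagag
The DR4 element consists of a pair of AGGTCA repeats spaced by NNNN. The Abca1 match lies on the minus strand of the window, starts 67 bases before the start and has 3 mismatches, a number allowed after the sequence had been seen. Among all 32851 RefSeq promoter windows of 250 bases, 18.5% held a DR4 match with up to 3 mismatches on either strand and 2.57% one with up to 2, which none of the 6 windows searched had. Lcat was the other of the 6 with a match at 3 mismatches. The Abca1 window also held CACGTG (6.02% of all windows) and TATAAA (12.4%) at 147 and 29 bases before the start. A match of letters is not a site of binding.

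Apoe, which encodes the main lipid carrier of the brain, did not pass the test. It lies at chr7:19696109-19699188 on the minus strand (GRCm38, GENCODE vM21; 2138 exonic bases). Its CPM was 1357, 1465 and 1646 in the 6-month-old mice 10, 11 and 17, and 1570, 1539 and 1436 in the 24-month-old mice 2, 4 and 5. All 3 old mice lay within the range of the young. The mean was 1489 ± 146 CPM in young and 1515 ± 70.1 CPM in old mice (SD, n = 3 each), a fold of 1.02 with a 95% confidence interval of 0.877 to 1.18 (adjusted p = 0.88). Among young mice the coefficient of variation was 9.8%, and among old mice 4.6%. With 41848 to 53929 counts per library, counting error was small beside the spread between mice.

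Apoc1, a small apolipoprotein gene just downstream of Apoe at chr7:19689481-19692660 (minus strand), was barely detected. It had 4, 9 and 7 counts in mice 10, 11 and 17, and 7, 10 and 8 in mice 2, 4 and 5. Together the young libraries held 20 counts (exact Poisson 95% interval 12.2 to 30.9) and the old 25 (16.2 to 36.9), intervals which cover counting error only. The fold was 1.21 with an interval of 0.627 to 2.35 (adjusted p = 0.68), an interval that leaves room for a 2-fold rise. Apoc4 and Apoc2, further along the cluster, had no or very few counts, with 0, 0 and 1 counts of Apoc4 in young and 4, 6 and 0 in old mice, and 0 counts of Apoc2 in every library.

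Clu, whose product clusterin is both a lipoprotein component and a secreted chaperone, was lower at 24 months. Its CPM (chr14:65968483-65981547, plus strand) was 901.5, 928.6 and 929.5 in mice 10, 11 and 17 and 722.8, 776.4 and 765.9 in mice 2, 4 and 5. Every old mouse was below every young mouse, and the spread within an age was narrow. The mean fell from 919.9 ± 15.9 to 755.0 ± 28.4 CPM (SD, n = 3 each), a fold of 0.821 with an interval of 0.725 to 0.929 (log2 fold change -0.28 ± 0.08 SE, adjusted p = 0.064, edgeR's quasi-likelihood test). In TPM the ages did not overlap either, with 916.7 to 956.2 TPM at 6 months and 801.3 to 859.8 TPM at 24 months.

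The fall of Clu depended on the scaling. Among genes of at least 1 CPM, 25.6% had a log2 fold change at or below that of Clu. With library totals the log2 fold change was -0.09 (adjusted p = 0.43), and the ages overlapped. It was below the median of genes of at least 1 CPM under both scalings. Leaving out 1 mouse ended the call in all cases but that of the 24-month-old mouse 5, with log2 fold changes from -0.30 to -0.24 and adjusted p from 0.052 to 0.29.

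Ratios within a library do not depend on scaling, and 9 of them were computed after the values had been seen. Apoe over Clu was 2.42, 2.54 and 2.85 in mice 10, 11 and 17, and 3.49, 3.19 and 3.01 in mice 2, 4 and 5 (TPM over TPM). Old mice therefore had more Apoe per Clu in every library, 1.24 times the young mean. Clu over the summed TPM of 12 astrocyte markers was 0.263 to 0.291 at 6 months and 0.206 to 0.227 at 24 months, again without overlap. That sum is weighted to 1 gene, Aldoc (1935 TPM on average), and was itself higher in every old mouse. Lcat over Apoe ran from 0.00872 to 0.0101 and from 0.00727 to 0.00828. These 3 separations each had p = 0.1 in a two-sided exact permutation test, the smallest that 3 mice against 3 allow (adjusted p = 0.3 over the 9 ratios). Clu over the summed TPM of 10 neuron markers overlapped between ages, at 0.134 to 0.152 and 0.134 to 0.155.

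**Figure D3:**
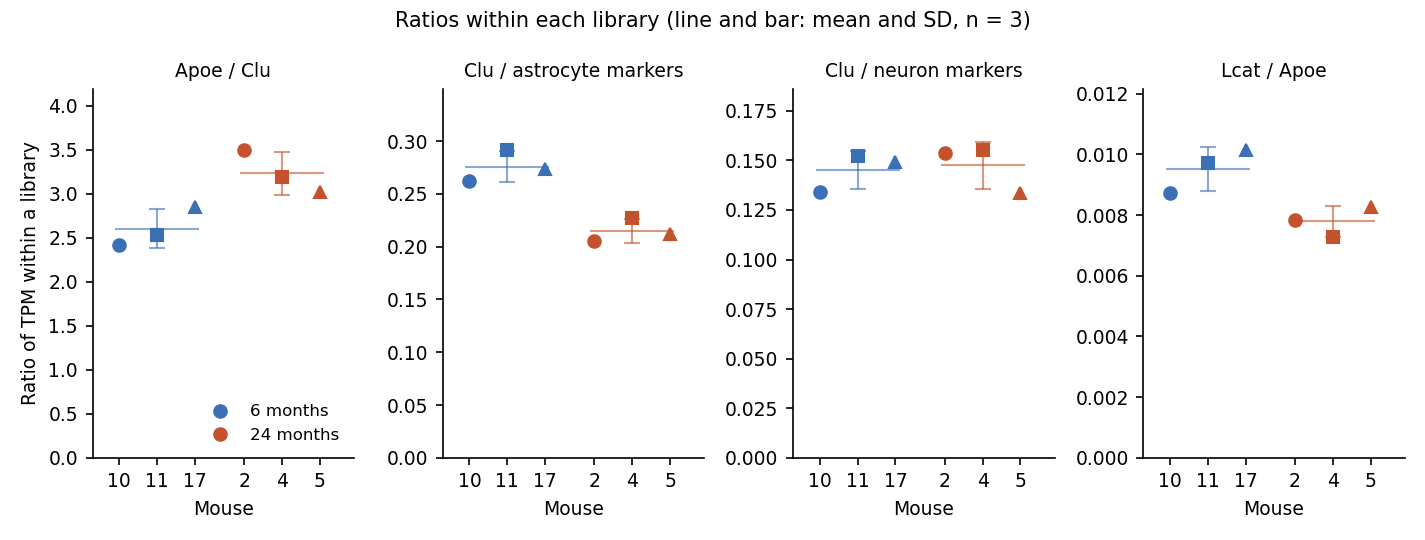
Ratios of TPM within each library for 4 pairs, by mouse, with the mean and SD of each age (n = 3). Apoe over Clu is higher, and Clu over astrocyte markers and Lcat over Apoe are lower, in every old mouse, while Clu over neuron markers overlaps.

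Markers of astrocytes and neurons were measured in the same libraries. The summed TPM of the astrocyte markers was 3285 to 3491 at 6 months and 3780.4 to 3999.8 at 24 months. The 2 ages did not overlap in this sum, but the median log2 fold change of the 12 genes was -0.02 and 7 of them were below 0. Aqp4 (-0.40, adjusted p = 0.10) and Slc1a3 (-0.16, adjusted p = 0.22), a water channel and a glutamate transporter, were lower in every old mouse in CPM without passing the test, and Aldoc, the most abundant, had a log2 fold change of 0.11 (adjusted p = 0.38). Gfap, the intermediate filament of reactive astrocytes, was the 1 gene of the 12 that rose, where 2.43% of genes of at least 1 CPM rose. With library totals, where 92.7% of all genes past 10% FDR were higher, 2 of the 12 rose and none fell. Gfap had 4029, 6008 and 5442 counts in young and 9421, 10624 and 5584 in old mice (fold 1.62, adjusted p = 0.074). Of the 10 neuron markers 4 fell (1 with library totals) and none rose, where 17.3% of genes of at least 1 CPM fell. Their summed TPM was 6292 to 6835 at 6 months and 5215 to 6345 at 24 months, with the old mouse 5 in the young range. The 12 markers of microglia, which also make ApoE, summed to 968.1 to 991 TPM in young and 1048 to 1209 TPM in old mice. Of these genes 1 was higher (Tmem119) and 1 lower (Csf1r), where 2.43% of genes of at least 1 CPM rose and 17.3% fell. With library totals 3 microglia markers rose and none fell. None of the markers of these 3 lists was at 0 in any library, and their part in the Clu and Apoe values was not tested.

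Apoa1, the main protein of plasma high-density lipoprotein and a product of liver and intestine, was rare in cortex and higher at 24 months. It lies at chr9:46228580-46230466 on the plus strand (1236 exonic bases). The young libraries held 8, 8 and 8 counts, and the old libraries 15, 20 and 18. Every old mouse was above every young mouse, on totals of 24 counts (exact Poisson 95% interval 15.4 to 35.7) and 53 counts (39.7 to 69.3). The mean rose from 0.245 ± 0.014 to 0.523 ± 0.058 CPM (SD, n = 3 each), a fold of 2.12 with an interval of 1.29 to 3.50 (log2 fold change 1.09 ± 0.32 SE, adjusted p = 0.071, edgeR's quasi-likelihood test). On so few counts both SDs are smaller than counting error alone would give, so they understate the uncertainty.

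The density over the nasal receptor genes, whose own expression was not tested, gives over the exonic length of Apoa1 0.85 to 1.03 counts in the young and 2.24 to 3.45 in the old libraries, which is 10.7% to 12.8% and 12.4% to 23.0% of the counts found. When counts at this density were subtracted from every gene, the log2 fold change of Apoa1 was 1.04, with an adjusted p of 0.15. Genes with 0.5 to 2 times the total counts of Apoa1 (5881) had a median log2 fold change of 0.54, and 19.0% of them passed 10% FDR as higher at 24 months. Leaving out any mouse but the 24-month-old mouse 5 also ended the call, with log2 fold changes from 1.05 to 1.17 and adjusted p from 0.076 to 0.21. Among 9 genes of liver and plasma proteins, Alb and 5 others were at 0 in some library. Of the 8 tested 5 rose, each on a few counts, where 10.0% of all genes tested rose. Fgg and Serpina1b had 0 counts in every young library, and Ahsg 0, 1 and 0. They reached the minimum of 10 counts only through the old libraries, so that a rise was nearly fixed by the filter. Serpina1a, with 0 counts in young and 1, 3 and 0 in old mice, was not tested. No conclusion is drawn from this count of rises. The genes that rose were not compared with the density of the nasal receptor genes. The neighbour Apoc3 had 4, 7 and 5 counts in young and 7, 5 and 7 in old mice.

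Apod, a lipocalin that carries arachidonic acid and other small lipids and that is made by oligodendrocytes and by perivascular and meningeal cells, varied more between mice than between ages. Its CPM (chr16:31296192-31314808, minus strand) was 31.4, 46.8 and 47.3 in mice 10, 11 and 17, and 29.3, 61.6 and 50.3 in mice 2, 4 and 5. The young mouse 10 and the old mouse 2 were low, and the ages overlapped. The mean was 41.8 ± 9.07 and 47.1 ± 16.4 CPM (SD, n = 3 each), a fold of 1.13 with an interval of 0.768 to 1.65 (adjusted p = 0.66). Without the old mouse 4 the log2 fold change was -0.02, and the highest value with 1 mouse left out was 0.43.

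Both mice low in Apod were low in fibroblast transcripts. The summed TPM of 10 markers of meningeal and perivascular fibroblasts was 50.6, 86.1 and 131.3 in mice 10, 11 and 17, and 54.8, 135.2 and 72.1 in mice 2, 4 and 5. Mgp, the most abundant of them, had 189, 326 and 513 counts in young and 190, 405 and 270 in old mice. The 12 oligodendrocyte markers summed to 2248, 2898 and 1825 TPM in young and to 1132, 2617 and 3390 TPM in old mice, lowest in mouse 2. All fibroblast and oligodendrocyte markers were detected in all libraries, and none of either list passed 10% FDR. Apod over either sum overlapped between ages, and the part of these cells in its spread was not tested.

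**Figure D4:**
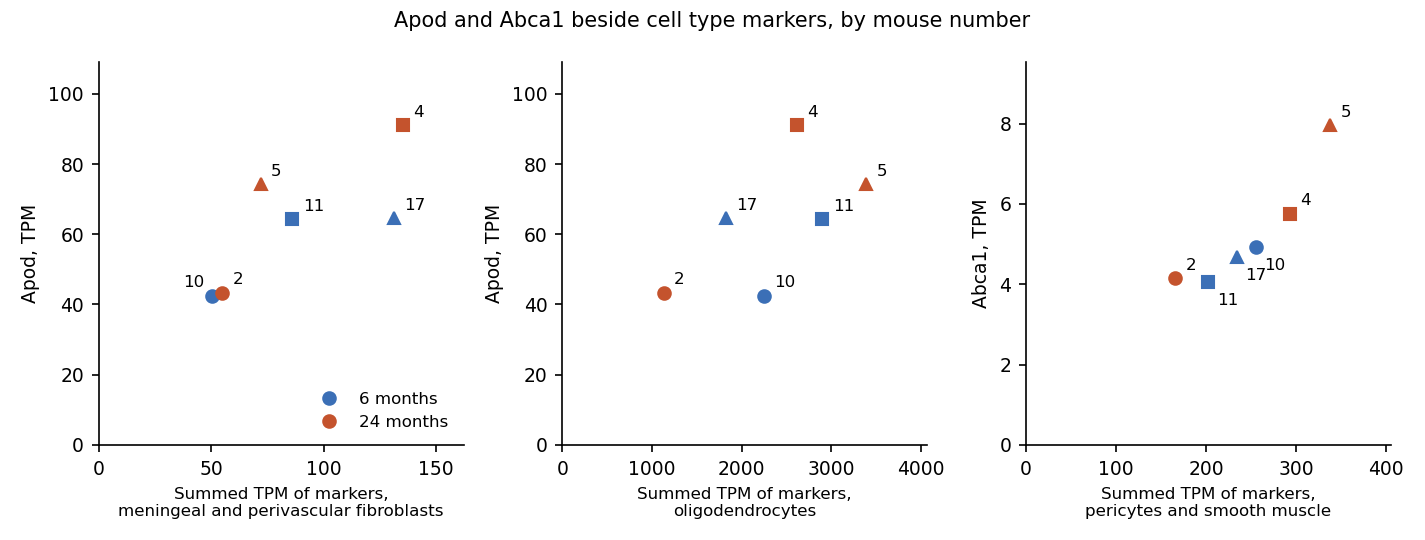
Apod (TPM) against the summed TPM of fibroblast markers and of oligodendrocyte markers, and Abca1 (TPM) against that of pericyte and smooth muscle markers, each point 1 mouse labelled by its number. Mice 10 and 2 are lowest in both Apod and fibroblast markers, and mice 4 and 5 are highest in both Abca1 and pericyte markers.

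Abca1, the transporter that passes cholesterol and phospholipid to lipid-poor apolipoproteins, did not pass the test. Its CPM (chr4:53030787-53159895, minus strand; 10363 exonic bases) was 14.6, 11.9 and 13.7 in mice 10, 11 and 17, and 11.3, 15.7 and 21.7 in mice 2, 4 and 5. The old mouse 5 was far above the others, and the old mouse 2 was the lowest of all. The fold was 1.21 with an interval of 0.874 to 1.67 (adjusted p = 0.39), and the coefficient of variation was 10.2% at 6 months and 32.2% at 24 months. The log2 fold change was 0.27, and 0.46 with library totals (adjusted p = 0.16). Without mouse 5 it was 0.01, and without mouse 2 it was 0.49. The 8 markers of pericytes and smooth muscle summed to 255.6, 202.5 and 234.0 TPM in young and to 165.6, 293.2 and 337.5 TPM in old mice, highest in the same old mice 5 and 4. That sum is weighted to 1 gene, Rgs5 (152.2 TPM on average). Of these 8 markers 1 (Notch3) rose, where 2.43% of genes of at least 1 CPM and 10.0% of all genes tested rose, and none was at 0. Mice 5 (229.0 TPM) and 4 (209.2 TPM) were also highest, and mouse 2 (161.1 TPM) lowest, in the sum of 8 endothelial markers. The 12 oligodendrocyte markers too were highest in mouse 5 (3390 TPM) and lowest in mouse 2 (1132 TPM). The part of any of these cells in the Abca1 values was not tested.

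Abcg1, which exports cholesterol to lipoprotein particles that already carry lipid, was far more abundant than Abca1 and did not pass the test. Its CPM (chr17:31057675-31117988, plus strand) was 270.4, 208.4 and 212.9 in young and 211.4, 228.5 and 231.4 in old mice. The young mouse 10 was the highest, and the old mice lay within the young range. The fold was 0.971 with an interval of 0.814 to 1.16 (adjusted p = 0.82). The sign of its log2 fold change turned with library totals and without mouse 10, among other settings. Abcg1 over Abca1 in TPM was 22.0 to 26.3 at 6 months and 15.2 to 26.6 at 24 months.

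Lcat, the enzyme that esterifies cholesterol on lipoproteins, was highest in a pair of young mice. Its CPM (chr8:105939551-105943382, minus strand) was 7.43, 8.92 and 10.5 in mice 10, 11 and 17, and 7.73, 7.02 and 7.46 in mice 2, 4 and 5. The young mouse 10 lay among the old mice, so that the ages overlapped. The fold was 0.828 with an interval of 0.654 to 1.05 (log2 fold change -0.27 ± 0.15 SE, adjusted p = 0.25), and the log2 fold change with library totals was -0.08.

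Lrp1, the large endocytic receptor for ApoE-bearing particles, did not pass the test. Its CPM (chr10:127538161-127621148, minus strand; 17717 exonic bases) was 113.0, 113.4 and 122.9 in young and 108.7, 105.7 and 122.8 in old mice. The fold was 0.965 with an interval of 0.834 to 1.12 (adjusted p = 0.74), and its sign turned with library totals. Apoe over Lrp1 overlapped between ages.

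Other genes of lipid transport numbered 72. Of the 70 tested, 16 (22.9%, against 18.4% of all genes tested) passed 10% FDR, 6 of them higher and 10 lower at 24 months. Among the 6, Apoa5 and Gpihbp1 reached the minimum of 10 counts only through the old libraries. All 10 that fell and 1 that rose were among the 56 genes of at least 1 CPM, whose median log2 fold change was -0.15 against -0.14 for all such genes. Of all genes of at least 1 CPM, 17.3% fell and 2.43% rose. With library totals only 1 fell and 8 rose, so that the direction depended on the scaling.

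Among the other apolipoproteins, 2 of 11 tested rose and none fell, where 10.0% of all genes tested and 19.0% of those near the counts of Apoa1 rose. Apob, which encodes the core protein of plasma low-density lipoproteins, had 10, 7 and 13 counts in young and 39, 35 and 20 in old mice (fold 3.02, interval 1.69 to 5.40, adjusted p = 0.055). The density of the nasal receptor genes over its exonic length gives 9.61 to 11.6 counts in young and 25.2 to 38.8 in old libraries, which is 87.8% to 165% of the counts found over the 6 libraries. Apoa5, next to Apoa1, had 0 counts in the young libraries and 8, 4 and 1 in the old. That is at least 4.21-fold higher against a floor of 3 counts over the young libraries. Apoa5 reached the minimum of 10 counts only through the old libraries, so its rise was nearly fixed by the filter. The same density gives 1.74 to 2.09 counts of Apoa5 in each young library, where 0 were found, and 4.57 to 7.03 in each old library. Apoo, a mitochondrial protein and the most abundant of the list at 29.8 TPM, had a log2 fold change of -0.12 (adjusted p = 0.54). The median of the list, 0.53 against 0.15 for all genes tested, was 0.53 with Apoa5 at 4.21-fold too, and 7 of the 11 genes were under 1 TPM.

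Of the 11 other lipid-exporting ABC transporters, 3 fell and none rose, against 8.33% lower and 10.0% higher of all genes tested, and 17.3% lower of those of at least 1 CPM. With library totals none passed. Abca3, known for loading surfactant lipid in the lung, fell from 55.5 ± 0.64 to 38.2 ± 7.64 CPM (SD, n = 3 each, adjusted p = 0.057), and Abcg4, the close relative of Abcg1 in neurons, from 76.5 ± 2.96 to 59.1 ± 6.05 CPM (adjusted p = 0.062). Abcg2, a transporter of the blood-brain barrier, had a fold of 0.76 (adjusted p = 0.084). The median log2 fold change of the list was -0.18, and 0.00305 with library totals.

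Of the 19 other receptors, 5 fell and 2 rose, where 8.33% of all genes tested fell (17.3% of those of at least 1 CPM) and 10.0% rose. With library totals 1 fell and 3 rose. Lrp11 fell to 0.681 of its young level (interval 0.577 to 0.804) and Lrp1b, a neuronal relative of Lrp1, to 0.71 (adjusted p = 0.052 and 0.064). Sorl1, Vldlr and Lrp12, outside the rule for named genes and named after their values were seen, were the other receptors that fell (folds 0.726, 0.819 and 0.735). Lrp2, an epithelial receptor, had 6, 11 and 3 counts in young and 47, 32 and 24 in old mice, and Stab2, a scavenger receptor, had 11, 24 and 9 and 39, 37 and 28. The density of the nasal receptor genes over the length of Lrp2 gives 11.5 to 13.9 counts in the young and 30.2 to 46.6 in the old libraries. For the young this is 126% to 456% of the Lrp2 counts found. Over the length of Stab2 the density gives 6.04 to 7.26 counts in the young and 15.9 to 24.4 in the old libraries. Lrpap1, the chaperone of these receptors and the most abundant of the list, had a log2 fold change of -0.21 (adjusted p = 0.24).

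Of the 16 enzymes, transfer proteins and genes of lysosomal cholesterol export, 2 rose and 1 fell, near the 10.0% and 8.33% of all genes tested, and 3 rose and none fell with library totals. Lipa, the lysosomal acid lipase, fell from 27.4 ± 1.91 to 19.2 ± 3.45 CPM (SD, n = 3 each, adjusted p = 0.064), and Osbp, an oxysterol-binding protein, rose from 3.25 ± 0.72 to 4.99 ± 0.19 CPM (adjusted p = 0.071). Gpihbp1, which anchors lipoprotein lipase to capillaries, had 0 counts in the young and 5, 5 and 1 in the old libraries. That is at least 3.56-fold higher against the same floor. Gpihbp1 too reached the minimum of 10 counts only through the old libraries, so its rise was nearly fixed by the filter. The density of the nasal receptor genes gives 1.76 to 2.12 counts of it in each young and 4.62 to 7.12 in each old library. Cyp46a1, which turns over cholesterol in neurons and was the most abundant of the list, had a log2 fold change of -0.18 (adjusted p = 0.24). Of the 19 liver X receptors, partners and target genes, which include Abca1, Abcg1, Apoe and Apoc1, Fasn fell (fold 0.735, adjusted p = 0.080) and none rose. Of all genes of at least 1 CPM, 17.3% fell and 2.43% rose. The median log2 fold change of the list was -0.04, against -0.14 for genes of at least 1 CPM, and with library totals none passed.

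**Figure D5:**
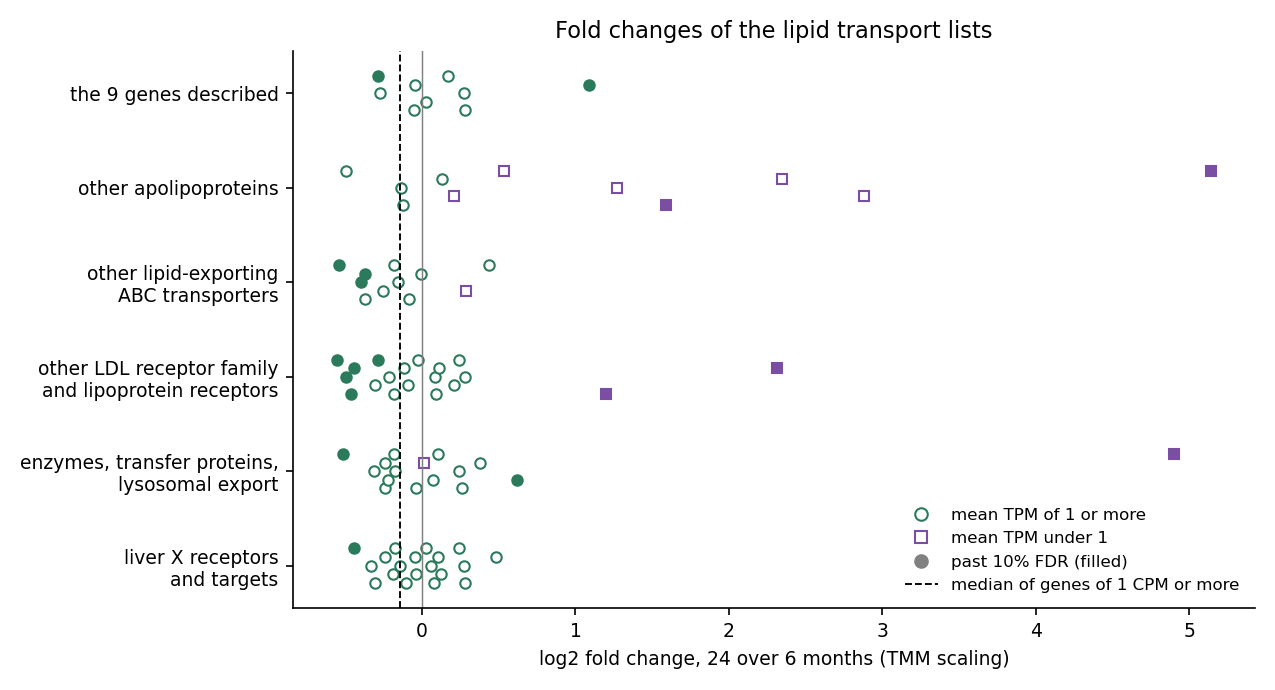
Log2 fold change (24 over 6 months, TMM scaling) of each tested gene in the lists of lipid transport, filled where past 10% FDR, squares under 1 mean TPM, with a dashed line at the median of genes of at least 1 CPM. The rises of over 1 on this scale are squares, except Apoa1, and each gene that fell was above 1 TPM.

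The 9 profiles had close neighbours among the 18618 other genes of at least 1 mean TPM, by root mean square difference of centred log2 CPM over the 6 libraries. The nearest to Clu were Oxct1 (0.015) and Bmi1 (0.021), and those to Apoe were Man1c1 (0.018) and Phc2 (0.032). For Abca1 they were Megf10 (0.060) and Coro6 (0.077), for Abcg1 Odf2 (0.022) and Dyrk1a (0.034), for Lcat Atxn7 (0.033) and Cbfb (0.043), and for Lrp1 Slc36a1 (0.024) and Slc4a4 (0.024). Apod was nearest to Gm48315 (0.070) and Ahnak (0.099), Apoa1 to Gm45464 (0.076) and 1700001K19Rik (0.082), and Apoc1 to 4930505A04Rik (0.059) and Prrt4 (0.063). Median differences from all compared genes ran from 0.21 to 0.57.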

How the data were processed

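RNA-seq counts and TPM of 6 cortex libraries were used. The authors deposited counts per gene (100% whole numbers), made by trimming with Trim Galore 0.6.4, mapping to GRCm38 with STAR 2.7.3a and counting on exons with featureCounts (Subread 2.0.0), per the submitters' processing notes and the study's methods, and deposited TPM computed from counts and exonic length. The stated counting options would split reads of several positions, which whole counts do not show. Samples were grouped by the age in the labels, which give no batch.

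Counts were tested with edgeR 4.0.16 (R 4.3.3) as described, without covariates, at 1% FDR as in the study and at 10%. Intervals of fold changes use the t quantile of the fit. Alternatives used DESeq2 1.42.0, limma 3.58.1 on log2(TPM + 1) and log2(TPM + 0.1) for genes averaging 0.1 TPM or more, other scalings and filters, and each mouse left out. The newer edgeR fit and the subtraction, from each gene, of counts at the density per exonic base of the nasal receptor genes (background subtraction) were added after seeing the data. DESeq2 gave no adjusted p for 5745 genes, which stayed out of its counts. For the profiles, 2 was added as the prior count before taking log2 CPM. The test was checked on simulated data. Other steps used Python 3.11.15, pandas 2.3.3, numpy 2.4.6, scipy 1.17.1 and matplotlib 3.10.9.

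The 9 genes and the lists were chosen with earlier results of these data known. Named genes were the 9, in each lipid list up to 4 past 10% FDR by smallest p and the most abundant, the most abundant marker of a list used, and the 2 nearest profiles of each gene. Of the identifiers, 55240 were found in GENCODE vM21, the annotation given here, in which no exon of the 9 genes overlaps an exon of another gene. At 29495379 to 36494240 counts per library, Apoa1 and Apoc1 rest on few counts. No protein sequence was used here.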

Additional observations from a re-analysis of the deposited data

How the results depend on the processing

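Of the 9 genes, 2 passed 10% FDR in the main comparison. The number was 1 with the likelihood ratio test, the exact test, the filterByExpr filter, library totals or a minimum of 1 count over the 6 libraries (Apoa1 each time), 1 with the Wald test of DESeq2 or after background subtraction (Clu both times), and 0 with a filter of 1 CPM in 3 libraries, which removes Apoa1 and Apoc1, or with limma on log2(TPM + 1) or log2(TPM + 0.1). It was 0 to 2 with 1 mouse left out. The 16 other lipid genes past 10% FDR became 9 with library totals, 5 with filterByExpr, 5 after background subtraction, 0 with the 1 CPM filter or either limma fit, and 0 to 22 with 1 mouse left out. All genes past 10% FDR numbered 6041 (18.4%), and 0 to 7997 (0% to 25.6%) with 1 mouse left out. Their share was 22.8% with the likelihood ratio test, 18.8% with the exact test and 13.5% with library totals. With filterByExpr it was 7.51%, with the minimum of 1 count 8.17%, with DESeq2 9.26% and after background subtraction 7.29%. The 1 CPM filter gave 0.70%, and limma 0.16% on log2(TPM + 1) and 1.23% on log2(TPM + 0.1). Of the 9 genes, 1 did not overlap between ages with library totals, in place of 2, and 2 to 4 with 1 mouse left out, the 4 (with Apod and Abca1) without the 24-month-old mouse 2. With fewer mice in an age, the ages separate more readily in any gene. The share of all genes without overlap is not given for these settings, so the rise to 4 is not read as a result.

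Signs turned for Abcg1 (log2 fold change 0.15 with library totals, 0.070 with filterByExpr, 0.11 with the 1 CPM filter, 0.079 with limma on log2(TPM + 1), 0.080 on log2(TPM + 0.1)) and Lrp1 (0.14, 0.062, 0.10, 0.058 and 0.060 under the same settings). With 1 mouse left out, log2 fold changes ran from -0.038 to 0.10 for Apoe (the lowest without mouse 10), from -0.022 to 0.43 for Apod (without mouse 4 and mouse 2), from -0.096 to 0.087 for Abcg1 (0.0059 without mouse 2, the highest without mouse 10) and from -0.115 to 0.035 for Lrp1 (the highest without mouse 4). None of these values passed 10% FDR, and the cause was not tested. The log2 fold changes of Apoa1, Apoc1, Clu, Abca1 and Lcat kept their sign in all settings run, and those of Apoa1 ran from 0.62 to 1.27 and of Clu from -0.30 to -0.09. The number bounded under 1.5-fold was 4 or 5 in all settings that gave one. The older edgeR fit equals the main one. Mouse numbers are not shared between ages. No paired analysis was possible because the ages share no replicate number.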
